A study of Mus musculus with 31 samples.

Results

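The 10 integrin genes described here, *Itga4*, *Itga5*, *Itga6*, *Itgal*, *Itgav*, *Itgb1*, *Itgb2*, *Itgb3*, *Itgb5* and *Itgb7*, encode subunits through which hematopoietic stem cells (HSCs) and fibroblasts adhere. They were chosen by gene name, and every probe set that the platform annotation assigns to 1 of them alone was taken. This gave 32 probe sets of the 45037 on the array that are not controls, and 10 of the 18193 genes with a probe set of their own. These 32 are called mRNA probe sets below by their gene annotation alone. Whether each of them lies in exons or in an intron was not checked. A further probe set of *Itga4* lies in an intron by the annotation of the study and was kept apart. The study chose it for follow-up after seeing these samples, so its change below is not independent evidence of a direction.

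RNA of 14.5 days post coitus embryos was hybridized to Affymetrix mouse genome arrays. *Crebbp* and *Ep300* encode the related acetyltransferases CREBBP and p300, and *Cdkn1a* the cell cycle inhibitor p21. Fetal liver (FL) HSCs were sorted as Sca-1+, Lin-, AA4.1+ and c-Kit++ cells, with 15 embryos pooled per sample and 12 ng of RNA amplified. Mouse embryonic fibroblasts (MEFs) were cultured from the body of 1 embryo each, and their RNA was not amplified according to the methods. Heterozygous *Crebbp*+/- FL HSCs (2 samples) were set against WT littermates (2 samples), and heterozygous *Ep300*+/- FL HSCs (2 samples) against WT littermates (2 samples), both on C57BL/6 and each sample read on 2 arrays. *Cdkn1a*-/- FL HSCs (4 samples) were set against WT cells (3 samples), labelled B6/129Sv and bought as separate stocks. *Crebbp*+/- MEFs (4 samples) and WT MEFs (4 samples) came from the same 4 litters on C57BL/6.

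The deposited values are log2 levels, normalized in each of these experiments apart, so a level is compared only within an experiment. A level of 6.64, which is log2 of 100, was the minimum intensity of the methods, and a probe set was tested where its highest sample in the fit reached it. The *Crebbp* and *Ep300* FL HSC samples shared 1 fit, so a probe set could enter through either experiment. A call needed a Benjamini-Hochberg adjusted p under 0.05 from limma and a fold change over 1.5. Of 9 stem cell markers, 8 reached the minimum in each *Crebbp* and *Ep300* experiment FL HSC sample, 9 in each *Cdkn1a* experiment sample and 3 in each MEF sample. *Slamf1* was the marker below it in the *Crebbp* and *Ep300* experiments. Of 10 fibroblast markers, 0 to 2 reached it in FL HSC samples and 10 in each MEF sample. *Cdkn1a* WT sample 3 stood apart from the other FL HSC samples in markers of several other cell types, which are given beside the *Cdkn1a* results. Hepatocyte markers were also uneven in the *Crebbp* FL HSC experiment. There 0 to 4 of 5 reached the minimum in WT samples and 1 to 2 in *Crebbp*+/- samples. The albumin gene *Alb* had 5.85 and 5.74 in *Crebbp*+/- samples, against 2.43 and 7.06 in WT samples 1 and 2. The part of hepatocytes in the *Crebbp* results was not tested. In bulk samples, fewer cells that express a gene and less RNA per cell cannot be told apart.

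Integrins are heterodimers of an α and a β subunit that cross the membrane, bind matrix or counter-receptors outside the cell and, through talin and kindlin, the actin cytoskeleton inside it. The α subunit sets most of the ligand choice: α4β1 binds VCAM1 and fibronectin, α5β1 and the αv integrins bind fibronectin or vitronectin, α6β1 binds laminin, αLβ2 binds ICAMs and α4β7 binds MADCAM1. In blood cells these receptors hold stem cells in their niche and carry leukocytes across endothelium, and in fibroblasts they build the focal adhesions on matrix.

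The start regions of 3 members are shown because their genes hold opposite or shared places in the cell type comparison: *Itga4* was bright in FL HSCs, *Itgb5* was bright in MEFs and *Itgb1*, the β partner of both α4 and α5, was bright in both. Each runs 5′ to 3′ from 250 bases before to 50 after a RefSeq transcription start (GRCm38.p6), with capitals on GGGCGG (the core of a GC box), TGACG (a half-site of the cAMP response element) or TGTGGT (the core bound by RUNX factors), or their reverse complements.
Itga4 (chr2:79255176-79255475, plus strand): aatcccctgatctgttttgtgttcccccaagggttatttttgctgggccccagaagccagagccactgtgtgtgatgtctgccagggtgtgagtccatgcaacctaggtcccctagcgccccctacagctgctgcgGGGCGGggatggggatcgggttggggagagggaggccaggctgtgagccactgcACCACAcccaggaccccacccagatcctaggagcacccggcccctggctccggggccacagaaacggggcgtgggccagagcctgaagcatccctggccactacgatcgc
Itgb5 (chr16:33829415-33829714, plus strand): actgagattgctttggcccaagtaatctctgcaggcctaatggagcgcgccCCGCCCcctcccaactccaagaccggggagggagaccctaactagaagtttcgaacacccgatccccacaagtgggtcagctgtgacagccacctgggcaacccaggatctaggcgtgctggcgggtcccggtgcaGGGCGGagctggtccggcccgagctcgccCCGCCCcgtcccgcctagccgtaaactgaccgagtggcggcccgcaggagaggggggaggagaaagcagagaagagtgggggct
Itgb1 (chr8:128685404-128685703, plus strand): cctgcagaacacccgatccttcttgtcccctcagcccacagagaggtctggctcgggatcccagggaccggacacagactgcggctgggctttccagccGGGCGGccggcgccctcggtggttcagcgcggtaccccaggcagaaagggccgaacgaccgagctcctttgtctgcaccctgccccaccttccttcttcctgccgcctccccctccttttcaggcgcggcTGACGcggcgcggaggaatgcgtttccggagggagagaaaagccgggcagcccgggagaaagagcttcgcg
Of the 10 genes, 6 had a start region in the table: *Itga4*, *Itga5*, *Itgav*, *Itgb1*, *Itgb5* and *Itgb7*. The letters were chosen after these sequences had been seen, and searched on both strands. GGGCGG was in 5 of the 6, against 35.7% of all 32851 start regions of that length, with 3 matches in *Itgb5*, 1 in *Itga4* and 1 in *Itgb1*, and *Itgb7* had no match in this window. TGACG was in *Itgb1* alone, against 20.8% of all, TGTGGT in *Itga4* alone, against 16.8%, and TATAAA in 0 of the 6, against 13.6%. No searched motif overlaps another here, and a match is a description, not a binding site.

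WT FL HSCs and WT MEFs differed in which of these subunits were bright. Their arrays were normalized apart, so each probe set was placed by its percentile among the 45037 of its own array, where the brightest has 100. A probe set counted as apart where the 4 WT FL HSC samples (2 from each of the *Crebbp* and *Ep300* experiments) and the 4 WT MEF samples did not overlap and the means differed by 10 points or more. This is a description with no test, and cell type, RNA amplification and normalization group cannot be told apart in it. Of the 32 mRNA probe sets, 11 were apart and higher in FL HSCs, against 24.5% of all probe sets, and 12 were apart and lower in FL HSCs, against 23.1% of all. These are 34.4% and 37.5% of the members, both above the shares of the array, and the median difference was -1.97 points over the members and -0.175 over all probe sets. Several are probe sets of the same gene, so they are not separate observations. At the brightest probe set of each gene, *Itga4*, *Itgal*, *Itgb2*, *Itgb3* and *Itgb7* were apart and higher in FL HSCs, against 22.9% of all genes. *Itga5*, *Itgb1* and *Itgb5* were apart and lower, against 22.5%, and *Itga6* and *Itgav* were not apart. Of the 11 higher ones, 4 reached the minimum intensity in every sample of 1 cell type, and of the 12 lower ones 11 did. Below the minimum the order of values carries little.

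*Itga4* (chr2:79255426-79333114), the α4 subunit, was bright in FL HSCs and below the minimum in MEFs. Its brightest probe set, 1436037_at, lay at percentiles 96.7, 96.6, 96.4 and 96.0 in WT FL HSCs, against 35.6, 60.5, 49.8 and 47.8 in WT MEFs. Every WT FL HSC sample was above every WT MEF sample, by 48.0 points in the means. Of its 5 mRNA probe sets 4 were apart and higher in FL HSCs, and 1427615_at stayed below the minimum in both cell types. The intronic probe set lay at 74.6 ± 3.28 in WT FL HSCs and 5.95 ± 0.0558 in WT MEFs (mean and SD of percentiles, n = 4 each).

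*Itgal* (chr7:127296139-127335137) and *Itgb2* (chr10:77530329-77565708) encode the 2 chains of LFA-1, the αLβ2 receptor of leukocytes. *Itgal* 1435560_at lay at percentiles 81.2, 83.2, 80.3 and 82.8 in WT FL HSCs, against 7.48, 7.56, 7.72 and 7.58 in WT MEFs. *Itgb2* 1450678_at lay at 73.7, 76.2, 75.6 and 75.4 in WT FL HSCs, against 37.4, 37.5, 37.6 and 37.6 in WT MEFs. Both chains of the receptor were thus higher by rank in every WT FL HSC sample, and neither reached the minimum intensity in any MEF sample. *Itgb2* reached it in 3 of the 4 WT FL HSC samples, with 6.51 in *Crebbp* experiment WT sample 1. The other *Itgal* probe set, 1425367_at, was also apart and higher in FL HSCs, at levels below the minimum in both cell types. *Itgb7* (chr15:102215994-102233405), the second β partner of α4, was apart in the same direction with 65.8 ± 2.21 in WT FL HSCs and 28.4 ± 4.35 in WT MEFs (SD, n = 4 each), but its levels were below the minimum in both. In the *Cdkn1a* experiment its WT levels of 9.47, 8.86 and 10.41 were above the minimum. There 18947 to 19447 probe sets per WT array reached the minimum. In WT FL HSC arrays of the *Crebbp* and *Ep300* experiments 11199 to 11512 and 12072 to 12339 did, so these levels are not comparable. By percentile, *Itgb7* lay at 68.8 to 79.8 in *Cdkn1a* WT samples, against 63.6 to 68.8 in the other WT FL HSCs.

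*Itgb5* (chr16:33829665-33949338), the β5 partner of αv, had the widest gap among the members. At 1417533_a_at it lay at percentiles 1.70, 1.53, 1.60 and 1.60 in WT FL HSCs, against 94.9, 95.1, 95.3 and 95.8 in WT MEFs. All 4 *Itgb5* probe sets were apart and lower in FL HSCs, with differences of -93.7 to -38.0 points, and their FL HSC levels were below the minimum in the *Crebbp* and *Ep300* experiments. *Itga5* (chr15:103344286-103366791), the α5 chain of the fibronectin receptor, was measured in both cell types at 1423267_s_at. It lay at 79.5, 82.0, 79.2 and 77.9 in WT FL HSCs and 92.9, 95.1, 93.8 and 94.3 in WT MEFs, which is lower in FL HSCs in every sample. *Itga5* 1423268_at reached the minimum in every WT MEF sample and in 0 WT FL HSC samples, and was lower in FL HSCs by a difference of -78.2 points. The *Itga5* probe set 1458996_at went the other way by 15.8 points, at levels below the minimum in both cell types.

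*Itgb1* (chr8:128685654-128733579), the β1 chain that pairs with α4, α5, α6 and αv, was expressed in both cell types. At 1426918_at it lay at percentiles 87.8, 85.2, 89.2 and 87.7 in WT FL HSCs, against 99.0, 99.1, 99.0 and 99.2 in WT MEFs. Its 3 probe sets that reached the minimum in MEFs were apart and lower in FL HSCs, with differences of -44.2 to -11.6 points, and the other 3 were below the minimum in both. *Itgav* (chr2:83722303-83806917), the αv chain, lay at 93.5, 94.2, 93.0 and 92.9 in WT FL HSCs and 98.2, 98.3, 97.8 and 98.3 in WT MEFs at its brightest probe set, 1452784_at. That probe set did not overlap between the cell types, yet its means differed by less than 10 points, near the top of the scale. *Itgav* 1421198_at differed by -70.5 points, so the 2 probe sets gave gaps of very different size.

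*Itga6* (chr2:71786886-71858427), the α6 laminin receptor chain, was bright in both cell types. At 1422445_at it lay at 96.8, 96.1, 96.5 and 96.6 in WT FL HSCs, against 87.5, 87.6, 84.8 and 88.7 in WT MEFs. At 1422444_at the order turned, with means of 80.6 in WT FL HSCs and 84.4 in WT MEFs, and neither probe set was apart. *Itgb3* (chr11:104608000-104670476), the β3 partner of αv and of the platelet αIIb chain, was below the minimum in both cell types at both of its probe sets. Of these, 1455257_at was apart at 59.7 in WT FL HSCs and 13.6 in WT MEFs.

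**Figure D1:**
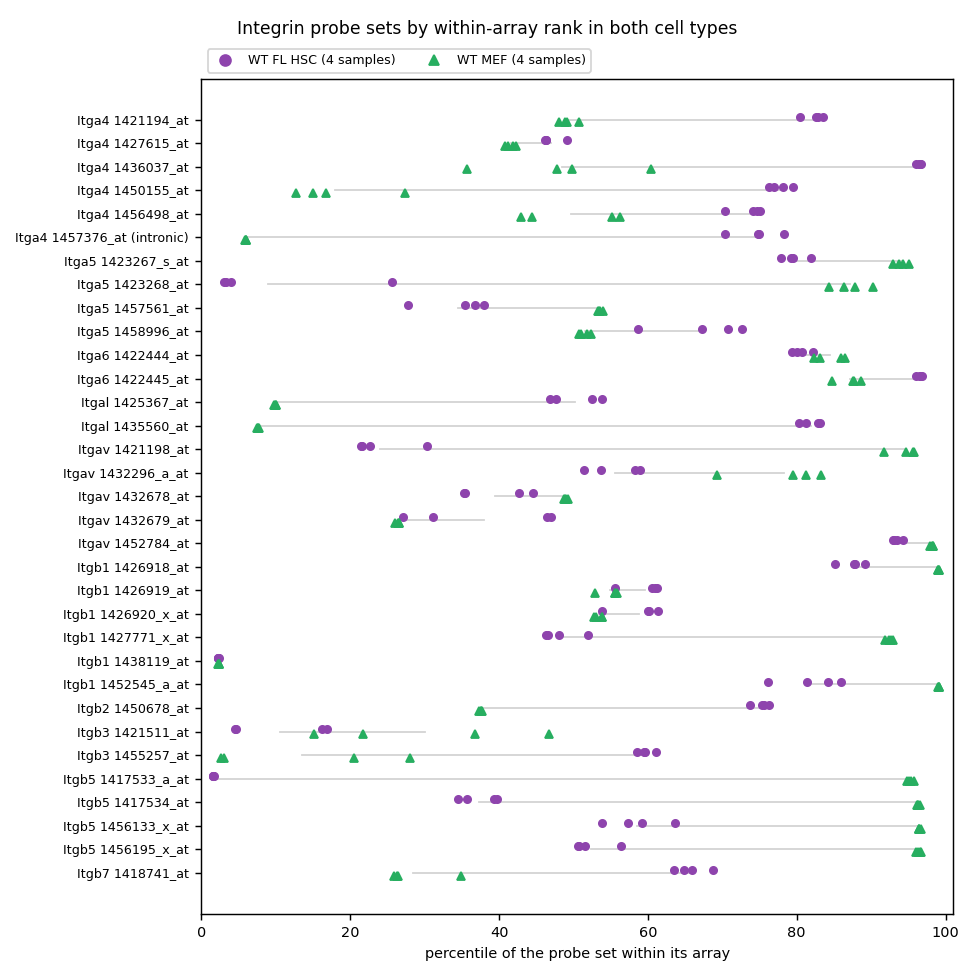
Percentile of each integrin probe set within its own array (x axis, 100 is the brightest of 45037), with 1 purple circle per WT FL HSC sample and 1 green triangle per WT MEF sample; grey lines join the means. *Itga4*, *Itgal* and *Itgb2* lie to the right in FL HSCs, the 4 *Itgb5* probe sets lie at 94.9 or above in MEFs, and *Itga6* is near in both.

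Genes that work with these integrins were read in the same way, from 3 lists of other integrin subunits, integrin ligands and adhesion machinery. Of 23 ligand genes with a probe set, 3 were apart and higher in WT FL HSCs, 15 were apart and lower and 5 were not apart. These are 13% and 65.2% of the list, against 22.9% and 22.5% of all 18193 genes at their brightest probe sets, and the median difference was -25.7 points over the list and -0.249 over all genes. The higher ones were *Icam1*, *Icam2* and *Icam4*, counter-receptors of integrins, with *Icam4* below the minimum in both cell types. Partner genes named by rank were chosen after their values had been seen. *Icam2* lay at 85.6 ± 2.63 in WT FL HSCs and 30.4 ± 0.190 in WT MEFs (percentile, SD, n = 4 each). Matrix ligands made up most of the lower ones, and *Vcam1*, the counter-receptor of α4β1, lay at 33.6 ± 3.90 in WT FL HSCs and 95.5 ± 0.201 in WT MEFs. *Fn1*, fibronectin, lay at 67.1 in WT FL HSCs and 99.7 in WT MEFs. So the receptor gene *Itga4* and its ligand gene *Vcam1* stood on opposite sides of this comparison.

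Of 40 machinery genes, 7 were apart and higher in WT FL HSCs, 19 were apart and lower and 14 were not apart. The higher ones are 17.5% of the list, below the 22.9% of all genes, and the lower ones 47.5%, above the 22.5% of all genes, with a median difference of -8.46 points. Kindlins and parvins had members on both sides, whereas the α-actinin genes *Actn1* and *Actn4* were both lower in WT FL HSCs, with differences of -20.6 and -17.6 points. *Fermt3*, the kindlin of blood cells, lay at 95.6 ± 0.602 in WT FL HSCs and 50.5 ± 3.10 in WT MEFs, while *Fermt2*, the kindlin of adherent cells, lay at 25.6 ± 10.7 in WT FL HSCs and 96.7 ± 0.441 in WT MEFs (percentile, SD, n = 4 each). *Parvg*, the parvin of blood cells, lay at 81.1 in WT FL HSCs and 1.72 in WT MEFs, and *Parva*, which links ILK to actin, at 2.91 in WT FL HSCs and 95.5 in WT MEFs. *Parvb* was lower in WT FL HSCs as well, at levels below the minimum in both cell types. The small GTPase genes *Rap1a* and *Rap1b*, which switch integrins on, lay at 94.1 and 99.1 in WT FL HSCs and at 94.3 and 98.8 in WT MEFs. Of 15 other integrin subunits, 1 was apart and higher in WT FL HSCs (*Itgax*, below the minimum in both) and 6 were apart and lower, among them *Itga1*, *Itga3*, *Itga8* and *Itga7*, the last also below the minimum in both. These are 6.67% and 40% of the list, against 22.9% and 22.5% of all genes, with a median difference of -2.41 points.

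**Figure D2:**
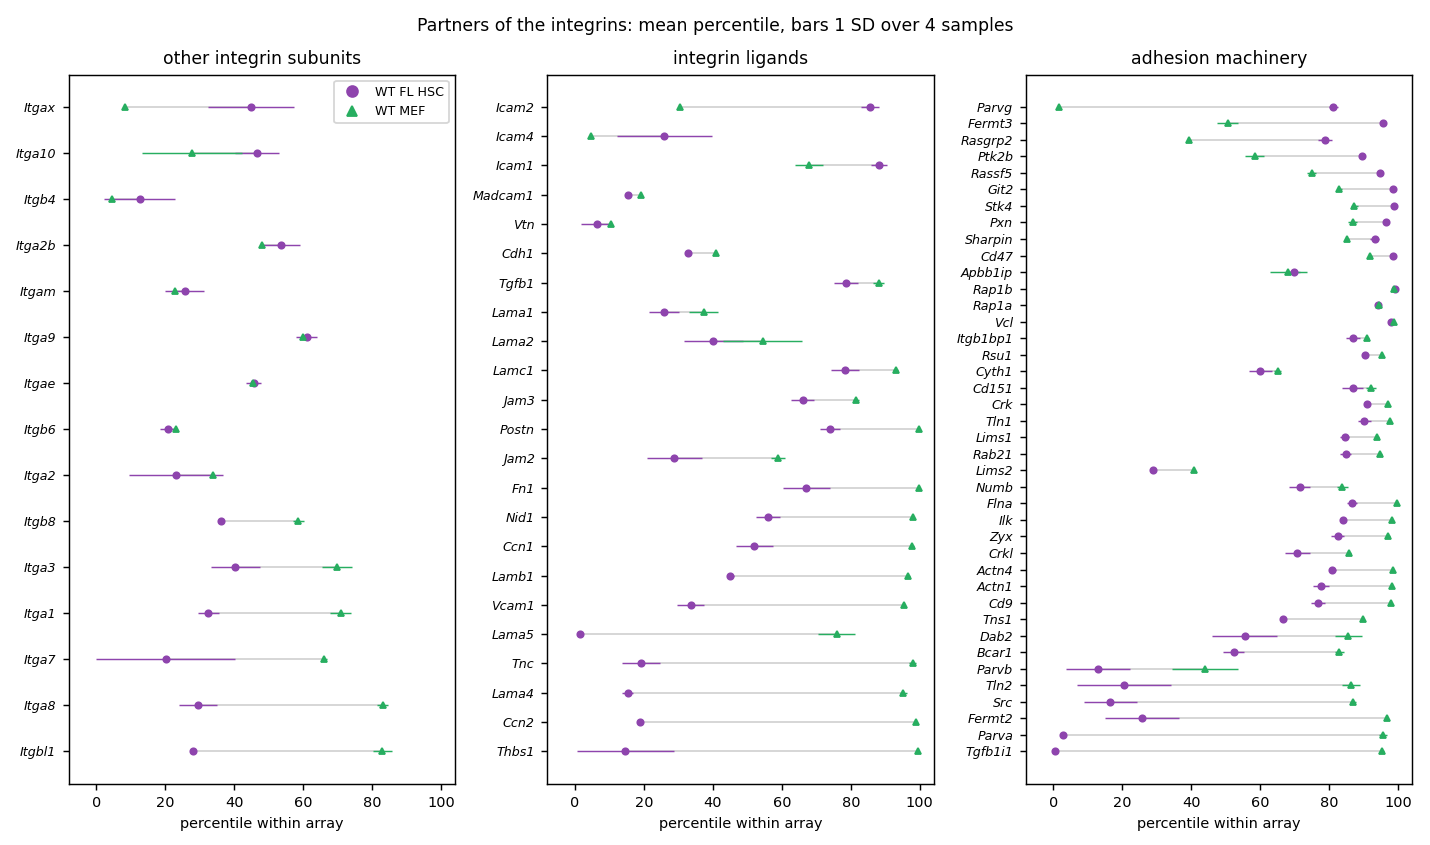
Mean percentile within the array (x axis) of genes of 3 lists in WT FL HSCs (purple circles) and WT MEFs (green triangles), with bars of 1 SD over 4 samples each. *Parvg* and *Fermt3* are far higher in WT FL HSCs, and *Parva*, *Fermt2*, *Thbs1* and *Ccn2* far lower.

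Within each experiment, mutant and WT samples were compared for the same probe sets. Here 0 of the 32 mRNA probe sets were called in any of the 4 experiments, and the members with the smallest p are given for each.

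**Figure D3:**
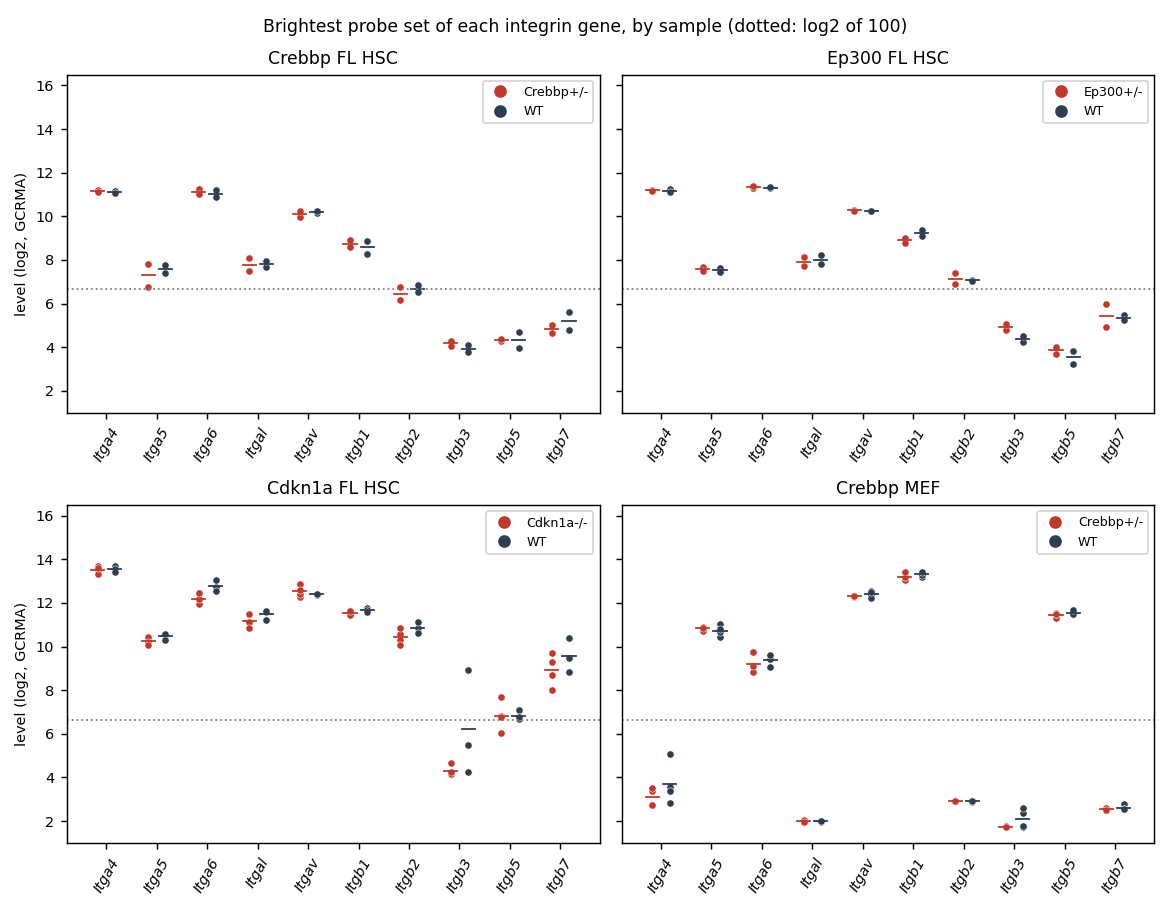
Level (y axis, log2) of the brightest probe set of each gene in every sample, mutant samples in red and WT samples in dark blue, with a line at each group mean and the minimum intensity dotted; levels are comparable within a panel and a gene only. Most mutant and WT points overlap, *Itga6* is lower in all 4 *Cdkn1a*-/- samples, and 1 *Cdkn1a* WT sample has *Itgb3* at 8.92.

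In *Crebbp*+/- FL HSCs, no integrin was called, and the *Itga4* intronic probe set had the lowest estimate while the brightest *Itga4* mRNA probe set was near WT. Of the 32 mRNA probe sets, 12 (7 genes) could be tested and 0 were called, against 0.383% of all 13332 probe sets (51 calls, and 0 without the term for each pair). The *Itgb3*, *Itgb5* and *Itgb7* probe sets did not reach the minimum. At an unadjusted p under 0.05 with the same fold, 1 of the 12 passed, against 10% of all. The median log2 change over the 12 was -0.048, and 0.048 over all probe sets tested. Of the 12 estimates 8 were below 0, against 42.3% of all. With only 7 genes among the 12, these estimates are not separate observations. *Crebbp*+/- and WT samples were compared within pairs of the same number.

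*Itga4* 1436037_at had 11.20 and 11.12 in *Crebbp*+/- samples, against 11.17 and 11.08 in WT samples. The groups overlapped, with a log2 change of 0.032 (SE 0.10, adjusted p = 0.878 from limma, 95% interval -0.23 to 0.29). *Itga4* 1421194_at and 1450155_at also overlapped between the groups, with changes of -0.060 and -0.030. *Itga4* 1456498_at had 6.05 and 5.72 in *Crebbp*+/- samples, against 6.58 and 6.64 in WT samples. Here both *Crebbp*+/- samples were below both WT samples, with a log2 change of -0.73 (SE 0.18, adjusted p = 0.104 from limma), which is not a call. In the *Crebbp* experiment it reached the minimum in 1 WT sample alone, which is in the group where it is high. It also entered the shared fit through *Ep300* WT sample 1, at 6.93, and a filter on the mean level removed it. Where this probe set lies in the gene was not analysed here. Its change was -0.37 on technical replicate 1 alone and -1.09 on technical replicate 2 alone.

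The intronic probe set of *Itga4* had 6.02 and 5.81 in *Crebbp*+/- samples, against 6.70 and 7.18 in WT samples. Both *Crebbp*+/- samples were below both WT samples and below the minimum intensity, which both WT samples reached. The log2 change was -1.03 (SE 0.20, adjusted p = 0.083 from limma), and it missed the threshold for a call. It was -0.68 in pair 1 and -1.37 in pair 2, and -0.72 on technical replicate 1 alone and -1.33 on technical replicate 2 alone. The 2 arrays of WT sample 2 had 6.48 and 7.89. Taken relative to the brightest mRNA probe set of the gene, the intronic signal differed by -0.71 and -1.41 in the pairs.

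The β1 chain had the next smallest p. *Itgb1* 1452545_a_at had 7.98 and 7.34 in *Crebbp*+/- samples, against 7.71 and 6.82 in WT samples. The *Crebbp*+/- value was higher within both pairs, though the groups overlapped, with a log2 change of 0.40 (SE 0.11, adjusted p = 0.134 from limma). *Itgb1* 1426918_at gave 0.17 with adjusted p = 0.433. *Itga6* 1422444_at had 7.35 and 7.05 in *Crebbp*+/- samples, against 7.40 and 7.54 in WT samples, with no overlap, and its change of -0.27 had adjusted p = 0.506. The brighter *Itga6* probe set, 1422445_at, had a change of 0.086. *Itga5*, *Itgal*, *Itgav* and *Itgb2* had changes of -0.29, -0.036, -0.096 and -0.21 at their brightest probe sets, and the groups overlapped at each.

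In *Ep300*+/- FL HSCs the same 12 probe sets were tested, 0 were called, against 0% of all 13332, and 0 passed at an unadjusted p with the fold, against 0.78% of all. Their median log2 change was 5e-04, against -0.0155 over all, and 6 of the 12 estimates were below 0, against 54.9% of all. The *Itga4* intronic probe set had 7.19 and 6.08 in *Ep300*+/- samples and 6.96 and 6.22 in WT samples. The groups overlapped and the pairs moved in opposite directions, with a change of 0.042 (SE 0.20, 95% interval -0.49 to 0.57 from limma). *Itga4* 1456498_at had a change of -0.047 and 1436037_at one of 0.0042.

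*Itgb1* 1426918_at had 9.03 and 8.78 in *Ep300*+/- samples, against 9.38 and 9.12 in WT samples. Both *Ep300*+/- samples were below both WT samples, with a log2 change of -0.35 (SE 0.11, adjusted p = 1.00 from limma). On technical replicate 1 alone this change was -0.073, and on technical replicate 2 alone -0.62. *Itgb1* 1452545_a_at had a change of -0.013, so the 2 bright probe sets of the gene differed here. The brightest probe sets of *Itga5*, *Itga6*, *Itgal*, *Itgav* and *Itgb2* had changes of -0.087 to 0.081.

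The same fit tested how far the *Crebbp* effect differed from the *Ep300* effect. Of the 12 member probe sets 0 were called, against 0% of all, and 1 passed at an unadjusted p with the fold, against 9.98% of all. For the *Itga4* intronic probe set the *Crebbp* effect minus the *Ep300* effect was -1.07 (SE 0.29, adjusted p = 0.231 from limma). For *Itgb1* 1426918_at it was 0.51 (SE 0.16, adjusted p = 0.266), with both *Crebbp*+/- samples higher and both *Ep300*+/- samples lower than WT within their pairs. Neither difference passed the threshold, which does not show that the 2 effects are alike.

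**Figure D4:**
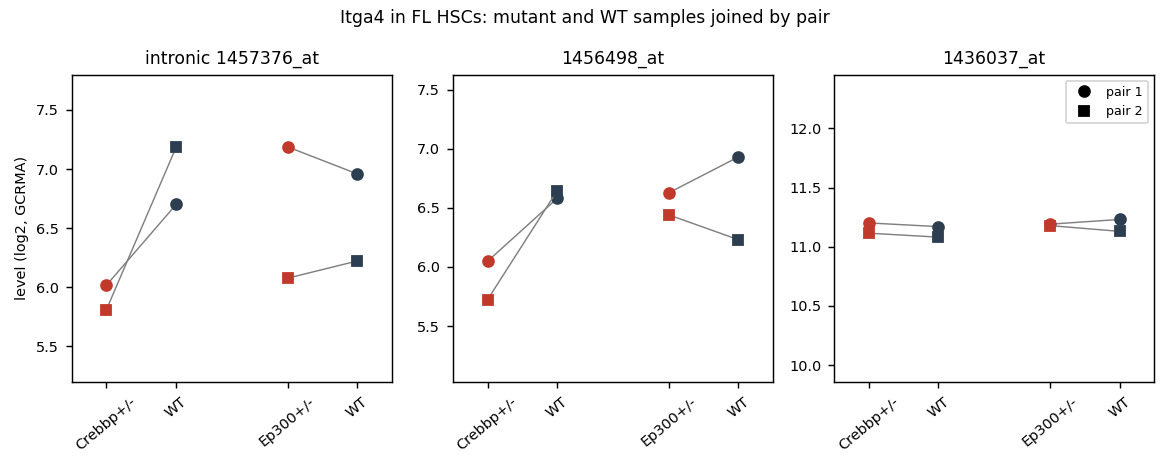
Level (y axis, log2, same span in each panel) of 3 *Itga4* probe sets in FL HSCs, with mutant (red) left of WT (dark blue) and lines joining samples of a pair. The intronic probe set and 1456498_at are lower in both *Crebbp*+/- samples, and 1436037_at stays between 11.08 and 11.23 in every sample.

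The genes whose pattern was most like that of the *Itga4* intronic probe set were found over the 8 FL HSC samples of the *Crebbp* and *Ep300* experiments, after subtracting the mean of each experiment. They were *Clcn6* (r = 0.987), *Slc25a3* (0.985), *Phf20l1* (0.982), *LOC102631979* (0.980) and *Chd9* (0.980). Their *Crebbp* changes were -0.42, -0.49, -0.87, -1.35 and -0.92, and their *Ep300* changes lay between -0.11 and 0.27. The genotype difference was part of the pattern by which these genes were picked, in the same samples. The direction of their changes therefore largely follows from the selection and is not independent evidence of a shared effect. Among the member probe sets, *Itga4* 1456498_at had r = 0.869 and *Itga4* 1436037_at r = -0.011. These are descriptions over 8 samples from 2 normalization groups.

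In *Cdkn1a*-/- FL HSCs, *Itga6* was the member with the smallest p. Here 17 of the 32 mRNA probe sets, covering all 10 genes, could be tested and 0 were called, against 0.405% of all 20962. At an unadjusted p under 0.05 with the fold 0 passed, against 4.05% of all. Of the 17 estimates 14 were below 0, against 37.8% of all probe sets tested, and their median was -0.20, against 0.055 over all. The 17 include several probe sets of the same gene, so they are not separate observations.

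Markers of other cell types differed widely between the samples of this experiment. Of 5 hepatocyte markers, 3 to 5 reached the minimum in *Cdkn1a*-/- samples and 1 to 5 in WT samples, and the log2 of their summed intensity was 9.81 to 11.84 in *Cdkn1a*-/- samples and 8.69 to 16.68 in WT samples. *Alb*, albumin, had 8.68, 6.94, 8.73 and 9.50 in *Cdkn1a*-/- samples, against 3.34, 3.87 and 14.54 in WT samples, so WT sample 3 was the highest and the other WT samples were the lowest. Of 7 macrophage markers, 2 reached the minimum in each *Cdkn1a*-/- sample and 2 to 5 in WT samples, with summed levels of 12.46 to 13.36 in *Cdkn1a*-/- samples and 12.66 to 14.22 in WT samples. *C1qb*, a complement gene of macrophages, had 3.43 to 3.45 in *Cdkn1a*-/- samples, against 3.43, 3.40 and 11.38 in WT samples. Of 5 erythroid markers, 0 reached the minimum in *Cdkn1a*-/- samples and 0 to 3 in WT samples, with summed levels of 5.69 to 6.5 in *Cdkn1a*-/- samples and 5.86 to 13.42 in WT samples. WT sample 3 had *Slc4a1*, the red cell anion exchanger, at 12.97, while *Hba-a1*, an α-globin gene, stayed at 2.08 in each sample of the experiment. The part of these cells in the integrin values was not tested.

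*Itga6* 1422444_at had 9.93, 9.97, 10.07 and 10.06 in *Cdkn1a*-/- samples, against 10.52, 10.51 and 10.60 in WT samples. All 4 *Cdkn1a*-/- samples were below all 3 WT samples. The log2 change was -0.54 (SE 0.079, adjusted p = 0.066 from limma), a fold of 1.45. *Itga6* 1422445_at had 12.13, 11.94, 12.20 and 12.48 in *Cdkn1a*-/- samples, against 12.71, 12.54 and 13.05 in WT samples. These groups did not overlap either, with a change of -0.58 (SE 0.17, adjusted p = 0.472). Without WT sample 3 the changes were -0.51 and -0.44, so both kept their sign. Neither is a call, and *Cdkn1a* genotype and stock of mice cannot be told apart.

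*Itgb3* 1455257_at had 4.14, 4.14, 4.26 and 4.65 in *Cdkn1a*-/- samples, against 4.25, 5.49 and 8.92 in WT samples. WT sample 3 alone reached the minimum, and the groups overlapped, with a change of -1.92 (SE 1.03, adjusted p = 0.717 from limma). Without WT sample 3 the probe set could not be tested. Over the 6 megakaryocyte markers the log2 of the summed intensity was 9.59 to 9.96 in *Cdkn1a*-/- samples and 9.27 to 12.58 in WT samples. Of these markers 2 to 3 reached the minimum in *Cdkn1a*-/- samples and 3 to 5 in WT samples, while *Gp1bb* stayed at 2.21 in every sample of this experiment. *Pf4*, platelet factor 4, had 6.56 to 7.70 in *Cdkn1a*-/- samples, against 7.13, 7.22 and 12.28 in WT samples, and *Ppbp* 2.07 in *Cdkn1a*-/- samples, against 2.07, 2.06 and 8.27 in WT samples. *Itga2b*, the αIIb chain, had 5.67 to 5.68 in *Cdkn1a*-/- samples, against 5.67, 5.68 and 6.65 in WT samples. *Vwf* and *Gp9* did not follow, with 7.79 and 9.10 in WT sample 3 and higher values of 8.99 and 9.51 in WT sample 1. The part of other cells in the *Itgb3* value was not tested.

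The leukocyte subunits were lower in the mean with overlapping groups. The widest of these differences was that of *Itgb7*. It had 9.30, 9.69, 8.70 and 8.01 in *Cdkn1a*-/- samples, against 9.47, 8.86 and 10.41 in WT samples (change -0.66, adjusted p = 0.721 from limma), and the change was -0.24 without WT sample 3 and -1.02 without WT sample 2. *Itgb2* and *Itgal* 1435560_at had changes of -0.42 and -0.33. The groups overlapped at each of the 3. The *Itga4* intronic probe set had 9.07, 9.72, 9.61 and 8.58 in *Cdkn1a*-/- samples, against 8.82, 9.54 and 7.71 in WT samples (change 0.56, adjusted p = 0.736). *Itga4* 1436037_at, *Itgav* 1452784_at and *Itgb1* 1426918_at had changes of -0.031, 0.14 and -0.13.

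In *Crebbp*+/- MEFs the fibroblast integrins stayed within a fold of 1.21 of WT. Of the 32 mRNA probe sets 14 (5 genes: *Itga5*, *Itga6*, *Itgav*, *Itgb1* and *Itgb5*) could be tested, and 0 were called, against 0% of all 15502. At an unadjusted p with the fold 0 passed, against 0.961% of all. Of the 14 estimates 11 were below 0, against 42.1% of all, and their median was -0.097, against 0.023 over all. With only 5 genes among the 14, these estimates are not separate observations. The probe sets of *Itga4*, *Itgal*, *Itgb2*, *Itgb3* and *Itgb7* did not reach the minimum, the *Itga4* intronic one included, which had 1.92 to 1.96 in *Crebbp*+/- MEFs and 1.91 to 1.95 in WT MEFs.

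*Itga6* 1422444_at had 8.88, 8.27, 8.41 and 9.37 in *Crebbp*+/- MEFs, against 9.21, 8.82, 8.71 and 9.30 in WT MEFs of the same litters. It was lower in 3 of the 4 litters and the groups overlapped, with a change of -0.28 (SE 0.11, adjusted p = 0.745 from limma). *Itgb1* 1426918_at had 13.12, 13.04, 13.20 and 13.42 in *Crebbp*+/- MEFs, against 13.20, 13.33, 13.28 and 13.42 in WT MEFs, lower in 4 of 4 litters by little (change -0.11, adjusted p = 0.778). *Itgb5* 1456133_x_at had 11.30, 11.53, 11.50 and 11.50 in *Crebbp*+/- MEFs, against 11.53, 11.49, 11.51 and 11.67 in WT MEFs, with a change of -0.095. *Itga5* 1423267_s_at and *Itgav* 1452784_at had changes of 0.10 and -0.10. WT litter 1 had *Itgav* 1432296_a_at at 6.91 while the other WT litters had 8.37 to 8.83.

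**Figure D5:**
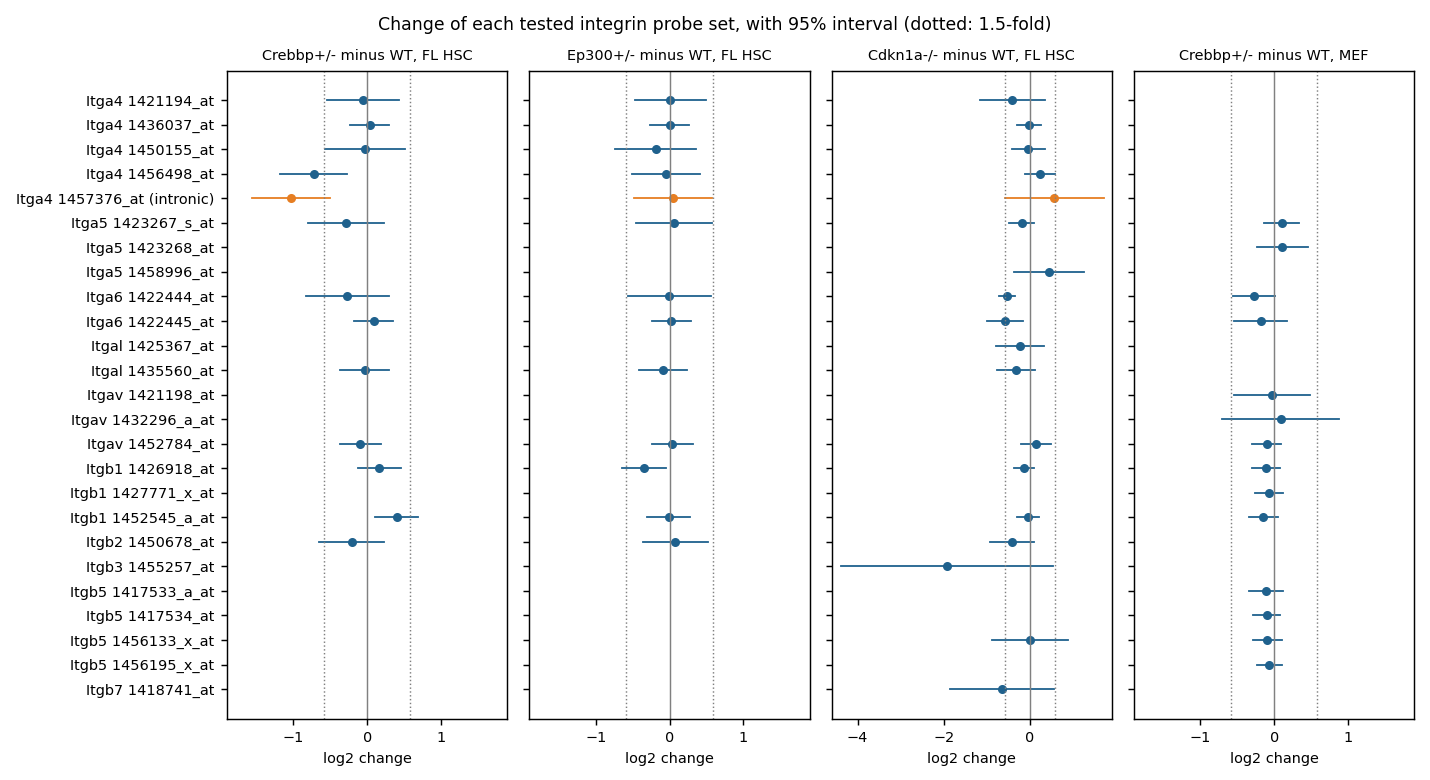
Log2 change, mutant minus WT (x axis), of every tested integrin probe set in each experiment, with points for limma estimates, bars for 95% intervals and dotted lines at a fold of 1.5; the intronic probe set is orange and the *Cdkn1a* panel has a wider axis. Estimates beyond the dotted lines are those of *Itga4* 1456498_at and the intronic probe set in *Crebbp*+/- FL HSCs and of *Itgb3* and *Itgb7* in *Cdkn1a*-/- FL HSCs.

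The partner lists were also tested within the experiments, each gene at its brightest probe set. Of the ligand genes 5, 5, 12 and 15 could be tested in the *Crebbp*, *Ep300* and *Cdkn1a* FL HSC experiments and in MEFs, of the machinery genes 28, 28, 31 and 33, and of the other subunits 0, 0, 3 and 4, and 0 of any were called. In *Crebbp*+/- FL HSCs, *Postn*, periostin, a matrix ligand of αv integrins, had 5.55 and 6.09, against 6.39 and 7.15 in WT samples. Both *Crebbp*+/- samples were below both WT samples, of which 1 reached the minimum, with a change of -0.95 (SE 0.23, adjusted p = 0.104 from limma). *Numb*, an adaptor in integrin endocytosis, had 6.20 and 6.59 in *Crebbp*+/- samples, against 5.89 and 5.47 in WT samples (change 0.72, adjusted p = 0.154). All of these are below the minimum, and *Numb* was tested only because *Ep300* experiment samples reached it. *Fermt3* and *Rasgrp2*, activators of blood cell integrins, had changes of -0.37 and -0.51 (adjusted p = 0.148 and 0.101). *Itgb1bp1* had a change of 0.34, and *Crkl*, which like *Numb* was below the minimum in every *Crebbp* experiment sample, one of 0.51.

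In *Crebbp*+/- MEFs, *Vcam1* had 10.76, 10.73, 10.77 and 10.36, against 11.12, 11.16, 11.26 and 11.14 in WT MEFs. Every *Crebbp*+/- sample was below every WT sample, with a change of -0.52 (SE 0.092, adjusted p = 0.505 from limma), which is not a call. *Postn* had a change of -0.49 and *Ccn1*, an integrin-binding matricellular protein, one of 0.58 (adjusted p = 0.609 and 0.664). *Itga1*, a collagen receptor chain, had the smallest p of the other subunits there, with a change of 0.41 (adjusted p = 0.601). In *Ep300*+/- FL HSCs *Cd151*, a tetraspanin that binds laminin-binding integrins, and *Actn4*, which links integrins to actin, had changes of -0.37 and 0.29, each with adjusted p = 1.00 from limma. In *Cdkn1a*-/- FL HSCs the ligand with the smallest p was *Nid1*, nidogen of basement membranes, at 4.09, 3.79, 3.98 and 4.12, against 5.93, 3.79 and 6.80 in WT samples. WT sample 3 alone reached the minimum, with a change of -1.51 (adjusted p = 0.691 from limma). There the machinery gene with the smallest p was *Crk*, an adaptor of focal adhesions, with a change of 0.17 (adjusted p = 0.720).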

How the data were processed

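Affymetrix arrays of FL HSCs and MEFs were analysed from the values the authors deposited, which are log2 levels made with GCRMA (background correction by probe sequence, quantile normalization and 1 value per probe set) in 4 separate groups of arrays. Of 45037 probe sets without controls, 34945 had 1 gene symbol in the annotation, 932 several and 9160 none. Technical replicates (r of 0.989 to 0.994) were averaged. Probe sets that reached log2(100) in any sample of a fit were fitted with limma 3.58.1 in R 4.3.3, with p-values adjusted over all probe sets tested. The fits were also run on simulated data, with noise scaled down and planted changes larger than nearly all member changes. That run therefore does not show that changes of the size seen here would be found. The *Crebbp* and *Ep300* FL HSC samples were fitted together with a term for each pair, after the paired test of the methods. *Cdkn1a* samples were unpaired. MEFs had a term for each litter, which the labels give. Deviations of same-numbered samples from their group means correlated with r of 0.71 (*Crebbp*) and 0.38 (*Ep300*) in FL HSCs and 0.19 to 0.46 in MEFs. In the unpaired *Cdkn1a* samples r was -0.045 to 0.29, so such values alone cannot show that samples are pairs. Nothing in the labels says that same-group FL HSC samples are separate pools, so p-values measure the spread between these samples, and the number of samples, not of arrays, sets the precision.

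The members and lists were chosen with earlier results of these data known. From the lists, genes with the smallest p in a comparison were named, up to 5 per list, at the brightest probe set. Start regions and gene coordinates came from RefSeq (GRCm38.p6). Alternatives were the block, single technical replicates, filters, centring, left-out samples and the test of the methods with its minimum of 0.5 for the interquartile range.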

Additional observations from a re-analysis of the deposited data

Results flagged for a closer look

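The *Itgb1* and *Itgav* effects in *Crebbp* and *Ep300* FL HSCs were listed because both pairs of 1 experiment moved one way and both pairs of the other moved the opposite way. The *Crebbp* effect minus the *Ep300* effect was 0.51 for *Itgb1* 1426918_at (adjusted p = 0.266 from limma), 0.41 for *Itgb1* 1452545_a_at (adjusted p = 0.333) and -0.13 for *Itgav* 1452784_at (adjusted p = 0.726), so none passed the test of the difference. A sample lay far from the other 3 of its group in 2 of the 45 groups of 4 samples examined, and chance lists about 1 in 20 such groups. *Itgb5* 1456133_x_at was 11.30 in *Crebbp*+/- MEFs of litter 1, while the other 3 litters had 11.50 to 11.53 (gap over range 0.85). *Itga5* 1458996_at was 8.03 in *Cdkn1a*-/- sample 2, while the other 3 samples were all listed at 7.876 (gap over range 1).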

How the results depend on the processing

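No member mRNA probe set was called in any alternative run. The paired test of the methods, with its filter on the interquartile range, could be run on 3 member probe sets in *Crebbp* FL HSCs, 1 in MEFs and 0 in *Ep300* FL HSCs, and its unpaired form on 2 in *Cdkn1a* samples, so its 0 calls say little and nothing for *Ep300*. Without the replicate block the number of member calls was 0 in each comparison, and it was 0 in *Cdkn1a* samples when replicate numbers 1 to 3, which do not pair them, were taken as a block. The *Itga4* intronic change in *Crebbp*+/- FL HSCs was unchanged by construction in 7 of 12 alternatives and lay between -1.37 and -0.68 in the other 5, with adjusted p of 0.080 to 0.624 over the 12, the highest without the replicate block. With the filter on the mean level the probe set dropped out. Leaving out pair 1 or pair 2 of the *Crebbp* samples gave -1.37 and -0.68. The *Itga6* 1422444_at change in *Cdkn1a*-/- FL HSCs ranged from -0.57 to -0.51, and its adjusted p from 0.038 with no filter, still under a fold of 1.5, to 0.527 with the replicate block. The number of member probe sets apart between WT FL HSCs and WT MEFs was 23 and ranged from 17 with 20 points to 28 with no smallest difference, and from 22 to 24 with a sample left out. The WT samples of the *Cdkn1a* experiment added gave 23. Over all probe sets, calls in *Crebbp*+/- FL HSCs were 51, against 208 with arrays centred, 222 with the filter on the mean level and 0 with no filter, without the replicate block, on 1 technical replicate, on the experiment alone or without any 1 pair. In *Cdkn1a*-/- FL HSCs they were 85, against 42 with no filter, 38 with the filter on the mean level, 6 with the replicate block and 38 to 87 with a sample left out. The causes were not tested.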
